A study of Mus musculus with 2 samples.

Results

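The genes described here encode glycosyltransferases and other enzymes that build glycans, measured in platelets of Smad4 f/f and Smad4 −/− mice. They were chosen by gene symbol alone, as the probe sets with 1 symbol in the array annotation that belongs to the named enzyme families (Galnt, Alg, Mgat, Fut, Chst and others). This rule found 278 probe sets of 139 genes among 34945 probe sets of 18193 genes. The rule used no measured value.

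Platelet RNA came from C57BL/6 mice of 2 genotypes, with 1 array and 6 mice each. In Smad4 f/f mice, the control, loxP sites flank the Smad4 gene, and in Smad4 −/− mice a Cre recombinase under the PF4 promoter is used to delete it in megakaryocytes and platelets, per the labels. Both groups therefore carry the floxed alleles, and whether the control mice carry the PF4-Cre transgene, the age of the mice and whether their RNA was pooled are not given in the sources used here. Smad4 joins the SMAD proteins that TGF-beta and BMP receptors activate and enters the nucleus with them, and the comparison is of platelet mRNA between both genotypes. With 1 array per genotype there is no replicate error and no test, so each difference below is one between 2 arrays, and their number limits the precision.

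Glycans are sugar chains that are attached to proteins and lipids in the endoplasmic reticulum and the Golgi. N-glycans are assembled on the lipid dolichol, moved to asparagine residues and then trimmed and branched, whereas mucin-type O-glycans start with N-acetylgalactosamine (GalNAc) on serine or threonine, and glycosaminoglycans are long sulfated chains on proteoglycans. Platelets, which have no nucleus and carry mRNA made in the megakaryocyte, display heavily glycosylated receptors such as the GPIb complex. Loss of the terminal sialic acid from these receptors marks platelets for clearance in the liver, and the alpha-granule proteoglycan serglycin binds platelet factor 4 through its glycosaminoglycan chains.

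All 11 platelet markers had a signal above the floor on both arrays, and 0 of them lay 2-fold or more apart. The floor is a linear signal of 145, the 60th percentile of the array on which that percentile was higher. The 3 probe sets of Smad4 itself read 949, 600.1 and 313 in Smad4 f/f against 894, 548 and 288 in Smad4 −/−, log2 ratios of −0.086, −0.13 and −0.12, so the targeted transcript was not clearly lower. The place of these probe sets relative to the deleted part was not analysed here, so they do not check the genotype, and the groups are named as labelled. Of 13 red cell markers, 11 were measured and 6 were at least 2-fold higher in Smad4 −/−, beside 3.42% of all measured genes. None was at least 2-fold lower, and 3 had log2 ratios below 0 (Tfrc −0.61, Rhd −0.49 and Klf1 −0.31). The summed signal of the 13 was 12565 in Smad4 f/f against 31386 in Smad4 −/−. Fech made up 4551 and 13904 of it, and Bpgm 2881 and 7635. The sum for 9 T and NK cell markers was 7599.6 and 16205, of which Cd28 made up 4685 and 12825. Of these 9, 6 were measured, 5 had a ratio above 0, and 1 (Cd28) was at least 2-fold higher. Cd3d, the 1 with a ratio below 0, read 356 and 181, a log2 ratio of −0.98. Cd3e, Cd3g and Cd4 were below the floor on both arrays. The B cell, monocyte and macrophage, and endothelial lists had 6, 6 and 5 measured genes. In each list 1 was at least 2-fold higher in Smad4 −/−, beside the 3.42% of all measured genes. These were Jchain, Csf1r and Flt1, and the probe sets of Csf1r and Flt1 went both ways. Of 5 measured neutrophil markers 0 passed 2-fold, and none of these lists had a gene at least 2-fold lower. For Gapdh, the control probe sets at the 3' end read 1.86 times those at the 5' end in Smad4 f/f and 2.61 times in Smad4 −/−, and for beta-actin 1.16 and 1.27 times, which are measures of RNA integrity. These differences stand beside every result below, and their part in the results was not tested. In RNA of mixed cells, fewer cells of a type and less RNA per cell cannot be told apart.

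Over the whole family, few genes lay far apart on the 2 arrays, and those that did went both ways. Of 139 genes, 73 were measured, meaning that the probe set standing for the gene reached the floor on at least 1 array. Of these, 52 did so on both arrays, 14 in Smad4 f/f alone and 7 in Smad4 −/− alone. At least 2-fold higher in Smad4 −/− were 5 genes (Pmm1, Chsy1, Chst10, Mgat4a and Extl3), where 3.42% of all 11089 measured genes were that much higher. At least 2-fold lower were 4 genes (Hs3st3b1, Ndst4, Fut11 and Fut10), against 3.58% of all measured genes. Together these are 12.3% of the measured family members, beside 7.00% of all measured genes, and the other 64 had a ratio, or a bound on it, under 2-fold. At 1.5-fold the family had 13 higher and 8 lower genes, beside 11.8% and 13.3% of all measured genes, and at 3-fold 2 and 1, beside 0.514% and 0.415%. These lines are rules of size, not tests, and the share past 2-fold rests on 9 genes.

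The median log2 ratio, Smad4 −/− over Smad4 f/f, was −0.061 over the measured family members and −0.019 over all measured genes. The middle 50% of the family ran from −0.23 to 0.26, a narrower range than the −0.35 to 0.31 of all measured genes. The SD over genes was nevertheless larger, 0.67 against 0.55, with the ends of the range at −1.69 for Hs3st3b1 and 2.28 for Pmm1. For 28 of the 73 measured members (38.4%, and 41.1% of all measured genes), the higher signal lay less than 2-fold above the floor, so that no 2-fold difference could be seen. Where a pair of signals is given without a label, Smad4 f/f comes before Smad4 −/−, and a value in parentheses after the pair is its log2 ratio. Signals of different probe sets depend on how well each binds its target and are not compared between genes. Ratios with 1 array below the floor are computed against the floor and are lower bounds of the difference. Folds of this kind are written as at least that fold, while some log2 ratios of further probe sets are such bounds without a mark.

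**Figure D1:**
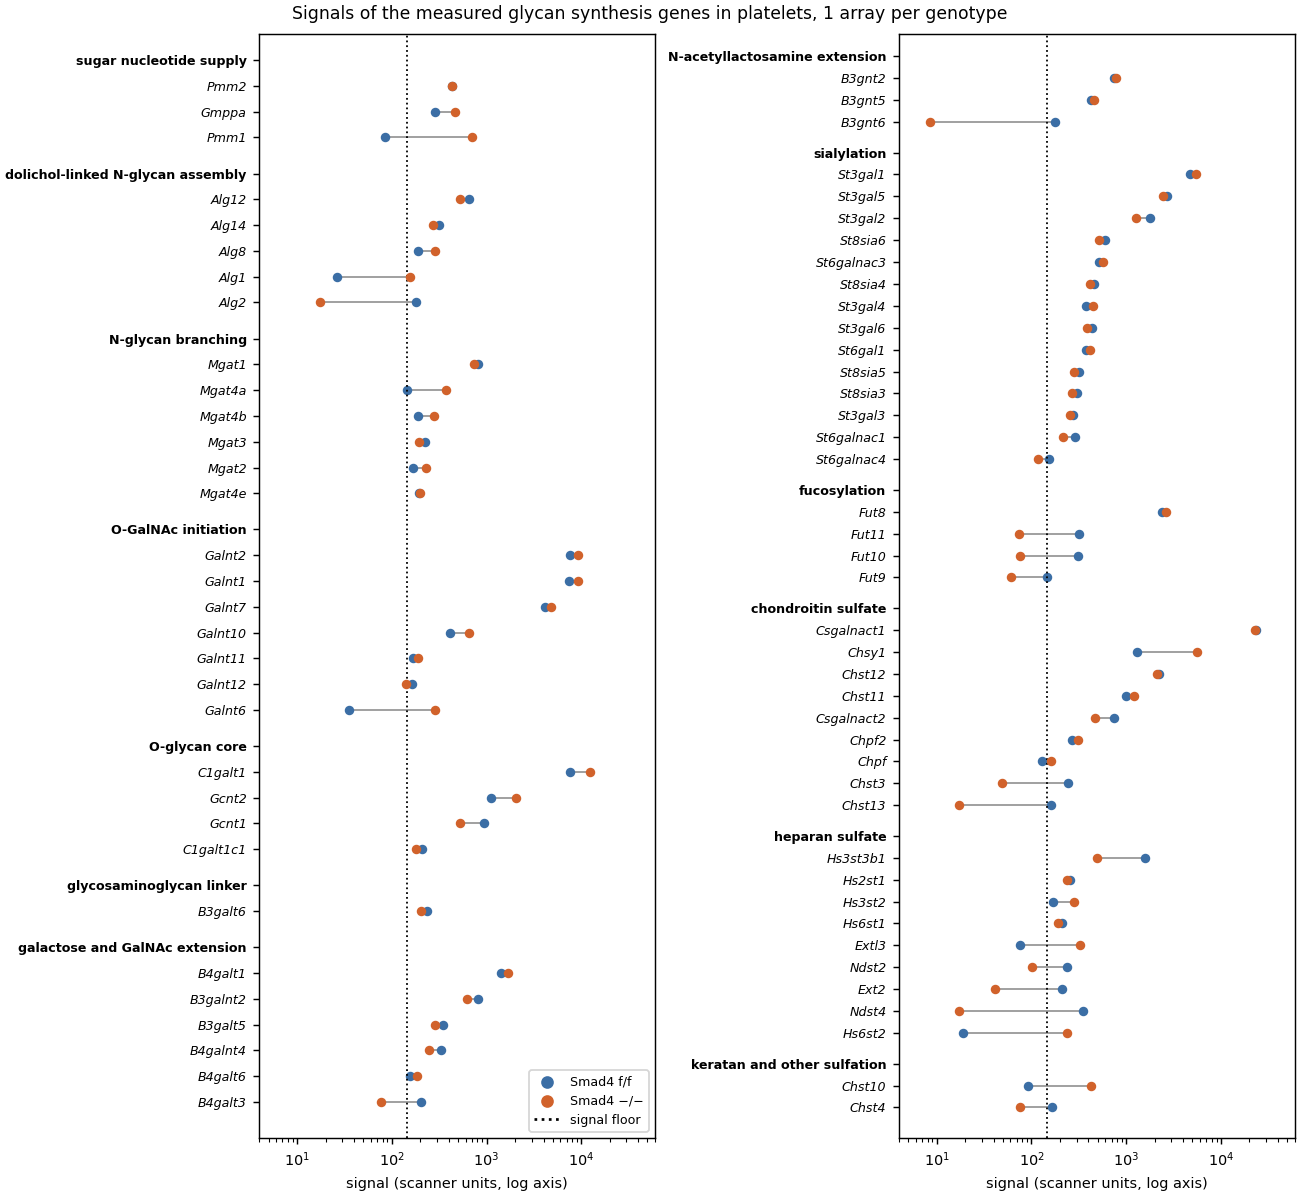
Linear signal (log axis) of the probe set that stands for each measured gene, by biosynthetic class, in Smad4 f/f (blue) and Smad4 −/− (orange) platelets, 1 array each; the dotted line is the floor of 145. Most pairs of points lie close together, while Chsy1 (1304 and 5660.4) and Hs3st3b1 (1563 and 486) are set far apart with both points above the floor.

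In the supply of activated mannose, which feeds N-glycans and other mannose-containing chains, 1 enzyme of a pair passed 2-fold by its main probe set. Pmm1 and Pmm2 both encode phosphomannomutases, which convert mannose-6-phosphate to mannose-1-phosphate. Pmm1 read 84.97 in Smad4 f/f against 706 in Smad4 −/−, at least 4.86-fold higher (2.28 on the log2 scale), with the Smad4 f/f signal below the floor. Its other measured probe set read 15.6 and 179, at least 0.30 on the log2 scale, so both were higher in Smad4 −/− and both ratios are bounds. Pmm2, the enzyme whose deficiency causes the most common congenital disorder of N-glycosylation, read 427 and 437, a log2 ratio of 0.032. A second measured probe set of Pmm2 read 33.5 and 152, with a bound of 0.064 and Smad4 f/f below the floor. The arrays thus stood further apart for Pmm1 than for Pmm2 by the probe sets that stand for them. The second probe sets of both genes lay near the floor, rose in Smad4 −/− and do not show the size of a difference. Gmppa, a regulatory relative of the enzyme that makes GDP-mannose, read 289 and 466, a log2 ratio of 0.69. Its measured probe sets ranged from −0.78 to 0.90, the latter a bound. Gmppb, the catalytic partner, lay below the floor on both arrays.

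In the dolichol-linked assembly of the N-glycan precursor, 5 of 11 Alg genes were measured and 0 passed 2-fold. The largest ratio was that of Alg8, a glucosyltransferase that acts near the end of the pathway, at 189.6 and 287 (0.60). Alg12, a mannosyltransferase, read 646 and 527 (−0.29) with a second measured probe set at 0.46, so its direction depended on the probe set. Alg14, which anchors the enzyme for the second N-acetylglucosamine, read 318 and 272 (−0.23). Alg1 and Alg2, which add the early mannoses, were each above the floor on 1 array only, Alg1 in Smad4 −/− (26.2 and 156) and Alg2 in Smad4 f/f (181 and 17.4). Alg3, Alg5, Alg6, Alg9, Alg11 and Alg13 were below it on both.

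Of the N-glycan branching enzymes, 6 of 10 were measured, all of them above the floor on both arrays. Mgat4a, which starts a branch on the alpha-1,3 mannose arm of complex N-glycans, read 146 in Smad4 f/f, just above the floor, and 374 in Smad4 −/−, 2.57-fold higher. Its other measured probe set, at most 168, lay too near the floor to pass 2-fold and gave a bound of 0.21 on the log2 scale. With it averaged in, the ratio is 0.79, short of 2-fold. Mgat4b, which catalyses the same reaction, read 191 and 276 (0.53), and Mgat2, which opens the opposite arm, 169 and 232 (0.46). These 3 genes read higher in Smad4 −/−. Mgat1, the enzyme that commits an N-glycan to the hybrid and complex types, read 813 and 745 (−0.13). Mgat3, which adds the bisecting residue, read 225 and 193, and its second measured probe set went the other way (0.26, a bound). The mean of both log2 ratios was 0.020. Mgat5 and Mgat5b, which add the beta-1,6 branch, were below the floor on both arrays.

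Of 16 Galnt genes, whose enzymes start mucin-type O-glycans by transferring GalNAc to serine or threonine, 7 were measured, 6 had a ratio above 0 and 0 passed 2-fold. Their median log2 ratio was 0.28, beside −0.019 over all measured genes, of which 48.3% had a ratio above 0. Galnt2 read 7599 and 9219, at 0.28 on the log2 scale, with 0.49 and 0.24 from its other probe sets. Galnt1 read 7397 and 9167 (0.31), with a second probe set at −0.016, so that its sign depended on the probe set. Galnt7, which extends sites that already carry GalNAc, read 4161 and 4783 (0.20) and its 3 probe sets agreed within 0.20 to 0.29. Galnt10 read 415 and 654 (0.66), with a second probe set at 0.25, a bound. Galnt6 was below the floor in Smad4 f/f (35.5) and read 288 in Smad4 −/−, at least 1.98-fold higher, which is just under the 2-fold line. Its other probe sets were below the floor on both arrays. Galnt12 was the exception in direction, at 162 and 143 (−0.16, a bound).

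In the O-glycan core class, which takes in all Gcnt genes by symbol, no gene passed 2-fold. The direction for C1galt1 and Gcnt1 depended on the probe set. C1galt1, the T-synthase that adds galactose to GalNAc and makes the core 1 structure, read 7699.7 in Smad4 f/f against 12469.6 in Smad4 −/−, 1.62-fold higher. Its other probe sets read 4343 against 4059 (−0.097) and 1725 against 1222 (−0.50), so 1 of 3 was higher and the mean log2 ratio was 0.034. C1galt1c1, which encodes Cosmc, the chaperone that T-synthase needs to fold, read 207 and 178 (−0.22). Gcnt1, which branches core 1 into core 2, gave the widest disagreement in the family. Its stronger probe set read 941 and 527 (−0.84) and its weaker one 172 and 554 (1.69). Gcnt2, the I-branching enzyme of poly-N-acetyllactosamine, read 1121 and 2049.7, 1.83-fold higher, on the single measured one of its 8 probe sets. Gcnt3 and Gcnt7 were below the floor on both arrays.

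Of 15 genes of galactose and GalNAc extension enzymes, 6 were measured and 0 passed 2-fold. B4galt1, which adds the galactose that sialic acid caps on N-glycans, read 1434 and 1673 (0.22). B3galnt2, which acts on the O-mannose glycan of dystroglycan, read 818 and 622 (−0.40), and its second probe set, 789 and 396, gave −0.99. Both of its probe sets were lower in Smad4 −/−. B4galt3 was above the floor in Smad4 f/f only, at 203 and 77.3, at least 1.40-fold lower. Of the B3gnt genes, B3gnt2, which encodes the main poly-N-acetyllactosamine synthase, read 738 and 773 (0.067). B3gnt5, which starts lacto-series glycolipids, read 426 and 462 (0.12), while B3gnt6 was above the floor in Smad4 f/f only (175 and 8.40).

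The sialyltransferases were the largest class, and the ratios of the probe sets that stand for them lay close together. Of 20 genes, 14 were measured, 0 were at least 2-fold higher and 0 at least 2-fold lower. Their log2 ratios ran from −0.46 to 0.23 with a median of −0.14, and 10 of 14 were below 0. Over all measured genes the median was −0.019, and 5733 of 11089 ratios were below 0. The SD of the ratio over the 14 sialyltransferase genes was 0.21, against 0.55 over all measured genes. St3gal4, whose loss in mice exposes galactose on platelets and speeds their clearance, read 379.7 and 446 (0.23). St3gal1, which caps core 1 O-glycans, read 4741 and 5402 (0.19), and St6gal1, which adds alpha-2,6-linked sialic acid to N-glycans, 379 and 413 (0.12). A second probe set of St6gal1 read 133 and 247, at least 1.70-fold higher. All 4 measured probe sets of these 3 genes had ratios above 0. Of these ratios, 3 were small beside the pooled SD of 0.57 between probe sets of 1 gene in this family. These genes are 3 of the 4 in the class with a ratio above 0, so their shared direction does not describe the class. Of other St3gal genes, St3gal3 read 272 and 254 (−0.097) and St3gal6 431 and 384 (−0.17). Further measured probe sets of St3gal6 gave −0.15 and 0.61, and the mean over its 3 measured probe sets was 0.10. St3gal5, the synthase of the ganglioside GM3, read 2719.7 and 2447 (−0.15). St3gal2, with the largest ratio in the class, read 1769.6 and 1284 (−0.46). Its weaker probe sets gave 0.055 and, from 47.1 and 181, a bound of 0.31. Within St8sia6, the probe sets ranged from −1.06 to −0.20, all lower in Smad4 −/−.

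Among fucosyltransferases, Fut10 and Fut11 read at least 2-fold lower in Smad4 −/−. Fut8, which adds the core fucose of N-glycans, read 2374 and 2615 (0.14), with a second probe set at −0.37. Fut10 read 313 in Smad4 f/f against 75.7 in Smad4 −/−, at least 2.16-fold lower, and Fut11 read 319 and 74.5, at least 2.20-fold lower. Both encode fucosyltransferases of the endoplasmic reticulum and both lay below the floor in Smad4 −/−. A second measured probe set of Fut11 read 150.0 and 46.6, too near the floor to pass 2-fold, with a bound of −0.047. With it averaged in, the ratio is −0.59. With the floor at the 75th percentile, the ratios came to −0.27 for Fut10 and −0.29 for Fut11. Fut1, Fut2, Fut4 and Fut7, which make blood group and selectin-ligand structures, were not measured by this rule, and Fut9 reached the floor in Smad4 f/f only (146 and 61.2).

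**Figure D2:**
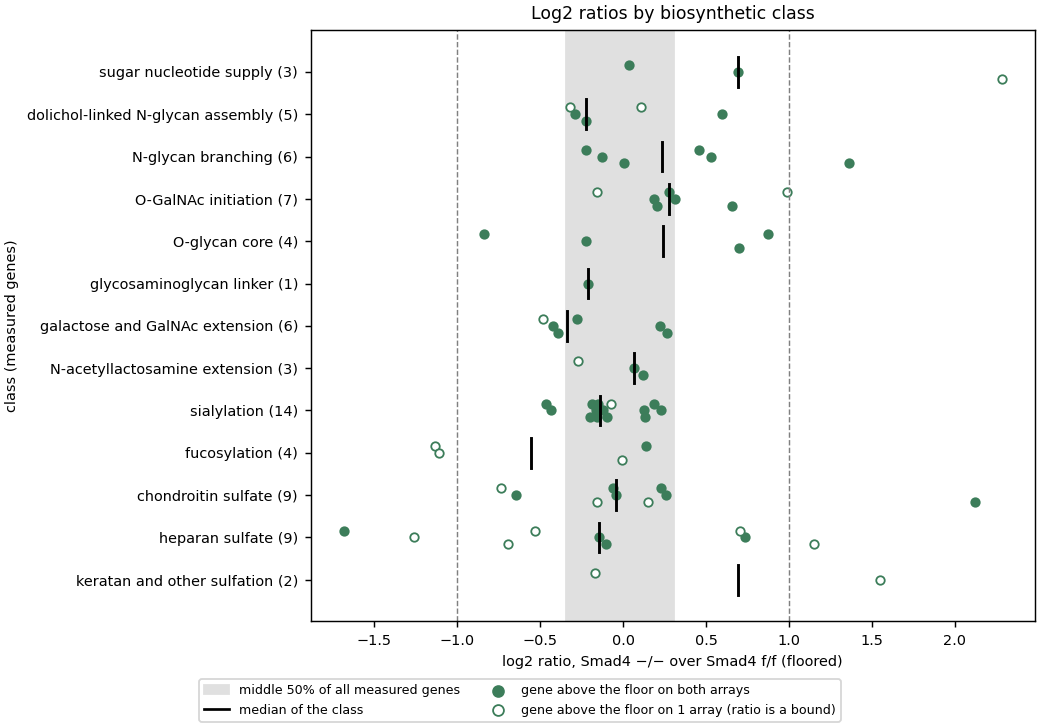
Log2 ratio, Smad4 −/− over Smad4 f/f, of each measured gene by biosynthetic class; filled points lie above the floor on both arrays and open points are bounds, the bar is the class median, dashed lines mark 2-fold and the grey band the middle 50% of all measured genes. Sialyltransferases cluster between −0.46 and 0.23, whereas the heparan sulfate genes spread from −1.69 to 1.15 and the highest points are Pmm1 (2.28, a bound) and Chsy1 (2.12).

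The largest ratio with both arrays above the floor lay in chondroitin sulfate synthesis. Chsy1, a polymerase of the chondroitin chain, read 1304 in Smad4 f/f against 5660.4 in Smad4 −/−, 4.34-fold higher, with both signals well above the floor and 1 probe set for the gene. Its ratio was 2.11 to 2.13 under the alternative scalings, and the choices of floor and probe set cannot move it. None of the other 8 measured genes of the class passed 2-fold. Csgalnact1, which starts the chondroitin chain on the linker, read 23509 and 22771 (−0.046), and its second probe set 10404 and 10808 (0.055). Csgalnact2, its relative, read 739.5 and 473 (−0.65). Chpf and Chpf2, partners of Chsy1 in polymerisation, gave log2 ratios of 0.15 (a bound) and 0.23, but the second probe set of Chpf2 read 368 and 174 (−1.08). The 4-O-sulfotransferase genes Chst11 and Chst12 read 1006 and 1202 (0.26) and 2232 and 2139 (−0.061). The 6-O-sulfotransferase gene Chst3 was above the floor in Smad4 f/f only, at 242 and 48.7, at least 1.67-fold lower. Of the 9 measured genes in this class, 1 passed 2-fold and the median was −0.046, beside 7.00% and −0.019 for all measured genes.

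The linker that joins glycosaminoglycans to proteins was measured through B3galt6, which adds a galactose of it, at 236 and 204 (−0.21); Xylt2 and B4galt7 were not measured by the probe sets that stand for them.

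Of the classes with 5 or more measured genes, heparan sulfate synthesis had the widest spread of ratios, an SD of 0.95. Of 18 genes, 9 were measured. In Smad4 −/−, 1 was at least 2-fold higher and 2 were at least 2-fold lower, beside 3.42% and 3.58% of all measured genes. Hs3st3b1, which adds the rare 3-O-sulfate, read 1563 in Smad4 f/f against 486 in Smad4 −/−, 3.22-fold lower, with both arrays above the floor. Its second measured probe set read 230.4 and 142 (−0.67), lower as well and with 1 side below the floor. Hs3st3a1, the close relative of Hs3st3b1, was below the floor on both arrays (13.5 and 24.99). Hs3st2 read 169 and 282 (0.73), higher by a probe set whose 2 partners gave −0.051 and 0.17, the latter a bound. Ndst4, an N-deacetylase and N-sulfotransferase of the chain, read 347 and 17.2, at least 2.39-fold lower, by the single measured one of its 3 probe sets. Ndst2, which acts on the heparin of mast cells, read 235 and 101, at least 1.62-fold lower. Extl3, which adds the GlcNAc that commits the linker to heparan sulfate, went the other way, with 74.96 and 322, at least 2.22-fold higher. Its second probe set read 18.3 and 218, too near the floor to pass 2-fold, with a bound of 0.58. With it averaged in, the ratio is 0.87. Hs2st1 and Hs6st1, the 2-O- and a 6-O-sulfotransferase, read 255 and 237 (−0.11) and 212 and 191 (−0.14). A second probe set of Hs2st1 read 238 and 165 (−0.53), so all 3 were below 0. The chain polymerase Ext1 was below the floor on both arrays, and its partner Ext2 read 209.7 and 40.98 by 1 probe set and 324 and 348 by another that may bind related sequences.

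Of the other sulfotransferases, Chst10, which makes the HNK-1 epitope, read 92.03 in Smad4 f/f against 425 in Smad4 −/−, at least 2.93-fold higher, on its single probe set and with Smad4 f/f below the floor. With the floor at the 75th percentile its ratio was 0.71. Chst4, which sulfates ligands of L-selectin, read 163 and 76.1, above the floor in Smad4 f/f alone.

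Many genes have several probe sets, which give further readings within an array. Of the 9 genes past 2-fold, 5 had 2 or more measured probe sets, and in each of those (Pmm1, Mgat4a, Extl3, Hs3st3b1 and Fut11) all went the same way, as in 163 of 285 such genes past 2-fold over the whole array. The second probe sets of these 5 had signals too near the floor to pass 2-fold, so they bear on the direction and not on the size. Over all 31 measured family members with 2 or more measured probe sets, 17 had them in 1 direction, beside 2011 of 4219 such genes of the array. Between measured probe sets of 1 gene, the log2 ratio had a pooled SD of 0.57 in the family (32 genes, B4galnt2 included, whose main probe set was below the floor) and 0.48 over 4252 genes of the array. This is a technical yardstick that holds no spread between mice.

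**Figure D3:**
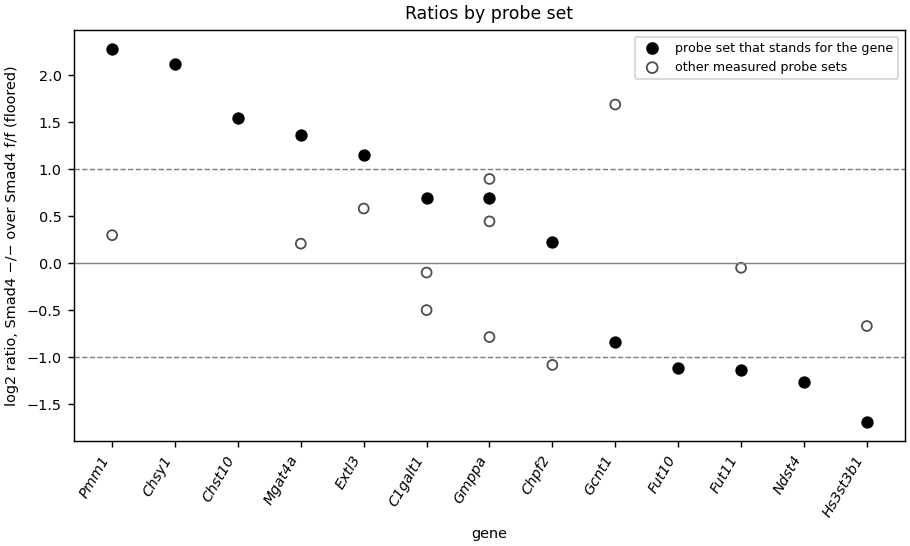
Log2 ratio, Smad4 −/− over Smad4 f/f, by probe set, for the genes past 2-fold (dashed lines) and the genes whose measured probe sets differ by 1 or more; filled points are the probe sets that stand for the gene. Chsy1, Chst10, Fut10 and Ndst4 rest on 1 measured probe set, and Gcnt1 has probe sets on opposite sides of 0, at −0.84 and 1.69.

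The promoters of the genes past 2-fold were searched for the SMAD-binding box (CAGAC, or GTCTG on the other strand) and for a GATA motif (AGATAA, or TTATCT), the latter bound by a factor of the megakaryocyte lineage. The window was the 250 bases before the start, from the RefSeq promoter table of GRCm38.p6, which held 7 promoters of 6 of the 9 genes. A SMAD box stood in 2 of these promoters, against 50 of 142 promoters of the family (35.2%) and 42.2% of 32851 promoters of all genes. The GATA motif stood in 0 of them, in 5.63% of family promoters and in 9.99% of all. A match is a description of the letters and not a bound site. Shown are the promoters of the 2 genes with the highest ratios, Pmm1 and Chsy1, and of Hs3st3b1, which has the lowest ratio. Also shown is the second of the starts of Mgat4a in the table, which holds the other SMAD box. The promoters not shown, of Chst10, Fut11 and the first start of Mgat4a, hold neither motif. Those shown are written 5′ to 3′ on the strand of the gene, with the SMAD boxes in capitals.
Pmm1 (chr15:81960931-81961180, minus strand): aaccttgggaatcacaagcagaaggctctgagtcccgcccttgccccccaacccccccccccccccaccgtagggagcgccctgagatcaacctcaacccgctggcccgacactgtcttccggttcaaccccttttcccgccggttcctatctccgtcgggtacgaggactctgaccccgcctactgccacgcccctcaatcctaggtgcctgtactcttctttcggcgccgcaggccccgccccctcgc
Chsy1 (chr7:66109242-66109491, plus strand): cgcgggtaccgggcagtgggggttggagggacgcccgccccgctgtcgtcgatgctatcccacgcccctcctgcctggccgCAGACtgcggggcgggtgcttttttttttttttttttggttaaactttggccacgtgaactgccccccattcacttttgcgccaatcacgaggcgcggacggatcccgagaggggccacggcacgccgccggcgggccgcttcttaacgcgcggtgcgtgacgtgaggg
Mgat4a (chr1:37536405-37536654, minus strand): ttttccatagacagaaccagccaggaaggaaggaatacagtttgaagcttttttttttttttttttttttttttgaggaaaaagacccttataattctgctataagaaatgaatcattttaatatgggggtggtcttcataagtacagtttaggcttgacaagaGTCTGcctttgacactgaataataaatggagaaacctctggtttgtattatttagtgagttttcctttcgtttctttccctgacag
Hs3st3b1 (chr11:63922285-63922534, minus strand): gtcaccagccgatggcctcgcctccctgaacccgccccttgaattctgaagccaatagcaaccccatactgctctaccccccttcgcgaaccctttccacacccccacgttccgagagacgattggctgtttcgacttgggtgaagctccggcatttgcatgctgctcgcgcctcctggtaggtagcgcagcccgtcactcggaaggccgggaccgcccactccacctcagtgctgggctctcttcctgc
The box begins 169 bases before the start in Chsy1 and 86 bases before it in Mgat4a, and the windows of Pmm1 and Hs3st3b1 hold neither motif. The GC content was 65.6% for Chsy1, 66.0% for Pmm1 and 62.4% for Hs3st3b1. It was 33.6% for this start of Mgat4a and 72.4% for its first start.

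Genes of the same pathways whose symbols the rule does not match were listed separately. Of 123 such genes on the array, 93 were measured, 3 were at least 2-fold higher and 3 at least 2-fold lower (6.45%, beside 7.00% of all measured genes), and their median log2 ratio was 0.081. Among the enzymes of sugar donors, Galk2, a kinase of GalNAc, read 236 and 637, 2.70-fold higher, and was the 1 of 21 past 2-fold. Papss2, which makes the sulfate donor, read 388 and 725 (0.90) with probe sets down to −0.38, and Cmas, which activates sialic acid, read 28019.8 and 31008 (0.15). Of 12 measured nucleotide sugar and sulfate transporters, 2 were at least 2-fold lower, beside 3.58% of all measured genes. Slc35d2 read 1307 and 644, 2.03-fold lower, and Slc35e1, whose substrate is not assigned, 847 and 284, 2.99-fold lower, with a second probe set at 0.14. Slc35b2, which carries the sulfate donor into the Golgi, read 287 and 47.7, at least 1.97-fold lower.

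None of the 20 measured genes of dolichol synthesis and the oligosaccharyltransferase passed 2-fold by the probe set that stands for the gene. Ost4, a small subunit of that complex, read 57316 and 65468 (0.19), with a second probe set at 0.72. Krtcap2, another subunit, read 226 and 389.6 (0.78), and its second probe set, at 1.25, was past 2-fold, as was the mean of both, 1.02. Dpagt1, which makes the lipid-linked start of the N-glycan, read 555 and 334 (−0.73). In N-glycan trimming, Edem3, a mannosidase of glycoprotein degradation, was at least 2.10-fold lower (305 and 129) with a second probe set at 0.047, and the glucosidase II subunit genes Ganab and Prkcsh had log2 ratios of 0.89 and 0.85. Each of these 2 rests on 1 measured probe set. Of the 11 measured trimming genes, 4 had a ratio above 0 and 7 below, with a median of −0.24. Over all measured genes, 48.3% had a ratio above 0 and the median was −0.019. In the glycosaminoglycan linker and modification list, B3gat3, which adds the glucuronic acid that completes the linker, read 184 and 439, 2.38-fold higher. Glce, the epimerase of heparan sulfate, read 277 and 146 (−0.93). Of 13 genes for proteins that carry or bind the glycans in platelets, 11 were measured and none of these passed 2-fold by the probe set that stands for it, with the serglycin gene Srgn at 157316 and 159404 (0.019) and Gp1bb and Gp9 of the GPIb complex at −0.050 and 0.18. Selp, the gene for P-selectin, read 4526 and 3267 (−0.47), and its 3 probe sets ran down to −1.04, which is past 2-fold.

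**Figure D4:**
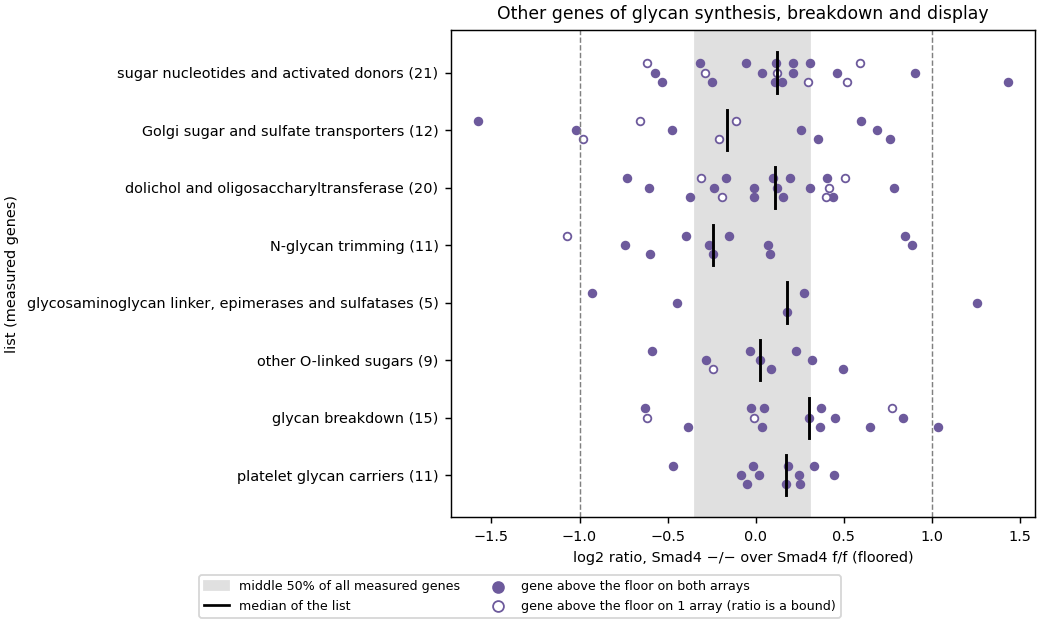
Log2 ratio, Smad4 −/− over Smad4 f/f, of other measured genes of glycan synthesis, breakdown and display by list; filled points lie above the floor on both arrays, open points are bounds, bars are medians, dashed lines mark 2-fold and the grey band the middle 50% of all measured genes. The carriers lie between −0.47 and 0.45, and Slc35e1 (−1.58) and Galk2 (1.43) mark the ends of the range.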

How the data were processed

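Platelet RNA was amplified from the 3' end, labelled with biotin and read on Affymetrix 3' expression arrays, per the labels. The authors deposited 1 log2 signal for every probe set of an array. The submitters' processing notes name MAS5, a per-array summary and scaling method, and its version and settings are not given in the sources used here; nor were detection calls used. The antilogs have a trimmed mean of 500.01 on both arrays. Of 45101 probe sets, 64 are controls and 34945 others have 1 gene symbol in the platform annotation. All 139 members matched the RefSeq gene table (GRCm38.p6) by Entrez identifier.

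Signals were raised to a floor (log2 7.18, the 60th percentile), and each gene was represented by the probe set whose mean over both arrays was highest, _x_at only where no other existed. No test was run, because each genotype has 1 array. Named were all members past 2-fold, the 2 strongest and the most different member of each class, genes whose probe sets differ by 1 or more, and family relatives; others named here were chosen after their values were seen. The members, lists and rules were chosen with earlier results of these data known. Alternatives varied scaling, floor, probe sets and the 2-fold line. On simulated data for this comparison (18193 genes), 100% of 200 genes shifted 4-fold were recovered when the steps were tested. The shifted genes were drawn from those far above the floor in Smad4 f/f, and the added noise was smaller than the spread between probe sets. The recovery therefore checks the steps and not what can be seen for genes near the floor. Python 3.11.15, pandas 2.3.3 and statsmodels 0.14.6 were used.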

Additional observations from a re-analysis of the deposited data

How the results depend on the processing

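No replicate could be left out with 1 array per genotype. No paired analysis was possible because each genotype has 1 array and there is no test. Of the 9 members past 2-fold, Pmm1, Chsy1 and Hs3st3b1 stayed past it under all 8 alternatives of scaling, floor and probe sets, Chst10, Fut10 and Ndst4 under 7 and Mgat4a, Extl3 and Fut11 under 6, and none turned direction. For Chsy1, with 1 probe set and signals far above every floor, only the scalings could move the ratio. Beside 5 members higher and 4 lower, and 379 and 397 of all measured genes, the counts moved as follows. With the floor at the 50th percentile 7 members were higher and 7 lower, and 671 and 762 of all genes. With it at the 75th 2 members were higher and 1 lower, and 175 and 140 of all genes. The number of measured genes changes with the floor percentile, so these counts do not share a base and are not shares. With no floor 8 members were higher and 13 lower, and 1130 and 1301 of all genes. At 1.5-fold 13 members were higher and 8 lower, and 1308 and 1480 of all genes. At 3-fold 2 members were higher and 1 lower, and 57 and 46 of all genes. With the mean of measured probe sets 3 members were higher and 3 lower, and 286 and 287 of all genes. The median of the family, −0.061, was 0.075 with the 75th percentile as floor and 0.0045 with the mean of probe sets. The medians of the sugar donor, fucosylation, N-glycan branching and other small classes moved with the floor. Galnt6 passed 2-fold with quantile normalisation, with a 50th percentile floor and with none. With the mean of probe sets the sign changed for Gcnt1 (−0.84 to 0.43), Chpf2 (0.23 to −0.42) and the smaller ratios of Alg12, Csgalnact1 and Fut8. Only genes named by rule were followed through the alternatives. Outside them, the mean of probe sets also changed the sign for Mgat3 (−0.23 to 0.020) and St3gal6 (−0.17 to 0.10). Signals near the floor limit what can be seen, since a difference there is only a bound.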

Other observations

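Genes that break glycans down form a further group on the array. Of 23 such genes, 15 were measured, 1 passed 2-fold on the higher side in Smad4 −/− and 0 on the lower side, with 10 ratios above 0 and a median of 0.30. Aga, a lysosomal enzyme that cleaves the bond between asparagine and the N-glycan, read 359 and 735, 2.05-fold higher. Hgsnat, an acetyltransferase of heparan sulfate breakdown, read 369.9 and 659 (0.83), and Glb1, the lysosomal beta-galactosidase, 977 and 1531 (0.65). Hpse, the heparanase gene, read 54059 and 55463 (0.037) and Hexa, a subunit of beta-hexosaminidase, 35016 and 36141 (0.046). Neu1, a lysosomal sialidase, read 235 and 152 (−0.63), with a second probe set at 0.47, so its direction depended on the probe set.

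Of the genes for other O-linked sugars, 9 were measured and 0 passed 2-fold by the probe set that stands for the gene, with a median of 0.021. Oga, which removes O-GlcNAc from intracellular proteins, read 6675 and 7097 (0.088), with its 4 measured probe sets from −0.62 to 0.29. Ogt, which adds it, read 490.2 and 574 (0.23), the lowest of its 4 measured probe sets, which ran to 1.30 with a mean of 0.64. Rfng, a Fringe enzyme of Notch O-fucose, read 769 and 512 (−0.59).

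Probe sets with several gene symbols were not used above. That annotated to Hs3st5 and Apba3 read 80.2 in Smad4 f/f against 190.5 in Smad4 −/−, that annotated to Ccdc24 and B4galt2 read 140.6 and 26.2, and that annotated to Phactr1 and Chst11 read 71.3 and 41.0. Which gene such a signal comes from is not known from the annotation. Of the members counted as not measured, B4galnt2, B4galt7, Fut4 and Galnt3 had another probe set above the floor, and the others had none.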
